A study of Mus musculus with 18 samples.

Results

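The 7 genes described here encode carriers that move glucose into cells and the partners through which sodium gradients bear on that work. They are Slc5a1 and Slc5a2, which encode the sodium-glucose cotransporters SGLT1 and SGLT2, Slc2a1, Slc2a4, Slc2a8 and Slc2a12, which encode the facilitative transporters GLUT1, GLUT4, GLUT8 and GLUT12, and Fxyd1, which encodes phospholemman. They were taken by name from a table of 55450 genes, and all 7 had counts. RNA was measured in left ventricle of FVB/N mice, 1 library per heart, in 4 groups: wild type littermates on control diet (WT CD, n = 4) or on ertugliflozin (WT ERTU, n = 5), and mice with cardiac-specific overexpression of Gαq, the alpha subunit of the Gq protein, on control diet (Gαq CD, n = 5) or on ertugliflozin (Gαq ERTU, n = 4). ERTU, an inhibitor of SGLT2, was given in the chow at 0.5 mg per g for 16 weeks, from 4 to 20 weeks of age. The mice were male. The promoter that drives the transgene is not given in the sources used here.

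The SGLT proteins carry glucose against its gradient by coupling it to the inward flow of sodium. SGLT2 does this in the proximal tubule of the kidney, where ERTU acts, and SGLT1 mainly in intestine and kidney. The heart takes up most of its glucose by facilitative transport, through GLUT4, which moves to the cell surface in response to insulin and contraction, and through GLUT1, which is at the surface without these signals. GLUT8 is found mainly on internal membranes, and GLUT12 is a further transporter that insulin can move to the surface. Phospholemman binds the sodium pump of cardiomyocytes and restrains it until it is phosphorylated, and the pump keeps up the sodium gradient on which cotransporters and exchangers draw.

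Total counts per library ran from 15383566 to 20908363. Gnaq, the gene of the transgene, read 45.5 to 230 CPM (counts relative to library size, TMM-scaled) in the WT libraries. In the Gαq libraries it read 1641 to 11670 CPM, so every library matched its genotype label. Its level in Gαq was uneven between diets. Gαq CD libraries 6, 7, 8, 9 and 10 read 6304, 9701, 8045, 11670 and 1641 CPM. Gαq ERTU libraries 16, 17, 18 and 20 read 2392, 5207, 2236 and 3031 CPM. Gαq CD library 10 was thus below every Gαq ERTU library. The fitted log2 difference of Gnaq for ERTU against CD in Gαq was -1.22 ± 0.52 (SE) and was not called. All 10 cardiomyocyte markers were measured, with summed levels of 62920 to 99380 CPM. In 4 control-diet libraries Pdk4, a kinase gene induced by fasting, stood apart at 105 to 261 CPM (WT CD library 4 and Gαq CD libraries 7, 8 and 9), against 1308 CPM or more in the other libraries. The summed level of 5 atrial markers ran from 5.56 to 950 CPM and was highest in WT CD library 5, Gαq CD library 8, WT ERTU library 14 and Gαq ERTU library 20. Libraries carry the numbers of the count table. Where the call of a gene named here was lost without one of these sets of 4 libraries, both values are given. The part of these differences in the results was not tested. Nor was that of the Gnaq levels in the comparisons that use the Gαq groups. Without the set of low Pdk4, the genotypes on CD were WT libraries 1, 2 and 5 and Gαq libraries 6 and 10. The genes called between genotypes on CD then fell from 1318 to 317.

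Of the 7 genes, 6 passed the filter on low counts and were tested among 16270 genes. Slc5a2 was too low to test in that fit. Per kb of exon, Fxyd1 was highest with a mean level of 138 CPM per kb over the 18 libraries, followed by Slc2a4 with 93.5, Slc2a8 with 6.37, Slc2a1 with 4.54, Slc2a12 with 3.30, Slc5a1 with 0.334 and Slc5a2 with 0.0370 CPM per kb. Phospholemman and GLUT4 were thus the abundant transcripts, the other GLUT genes formed a lower tier, and both SGLT genes lay below it. The levels of Fxyd1 (111 to 161 CPM per kb) and Slc2a4 (52.9 to 148 CPM per kb) overlapped between libraries, with Fxyd1 the higher in 17 of 18. The levels of Slc2a8, Slc2a1 and Slc2a12 overlapped too. Within a library Slc2a8 was above Slc2a1 in 16 of 18 and Slc2a1 above Slc2a12 in 15 of 18. Slc2a4 was above Slc2a8, and Slc2a12 above Slc5a1, in 18 of 18. The level of Fxyd1, though not its first place, depends on the length used, since its annotated exons cover 2186 bases and its longest transcript 668 bases, and with the longest transcript its mean level in WT CD was 450.2 rather than 137.6 CPM per kb.

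**Figure D1:**
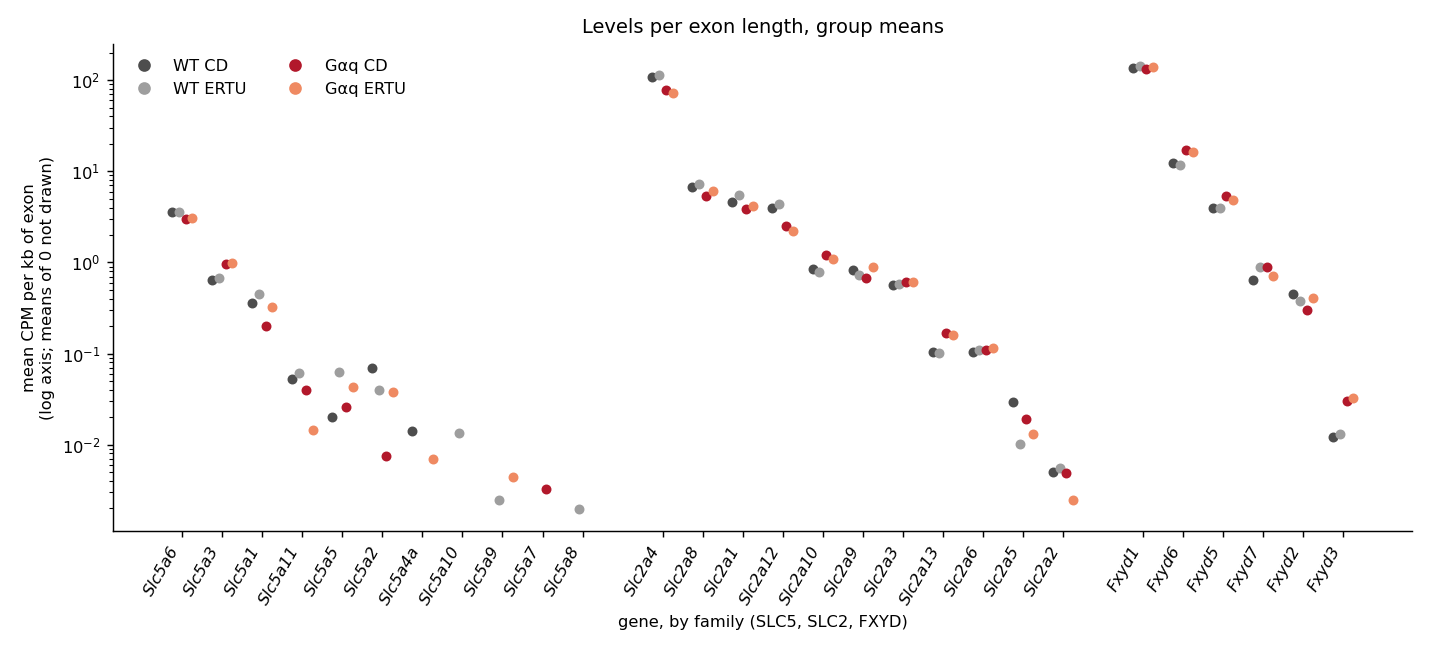
Mean level in each of the 4 groups, in CPM per kb of exon on a log axis, for the genes of the SLC5, SLC2 and FXYD families with counts; each point is a group mean, and means of 0 are not drawn. Slc2a4 stands more than a decade above Slc2a8, Slc2a1 and Slc2a12, Fxyd1 is of the order of Slc2a4, and Slc5a1 and Slc5a2 lie under 1 CPM per kb.

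Promoter sequences were taken from RefSeq (GRCm38.p6, 250 bases before to 50 after the annotated start) for 5 of the 7 genes. Those of Slc2a12 and Slc2a1 are shown because these genes were lower in Gαq in the tests that follow, and that of Slc2a8 because it was nearest to the threshold among the others. Slc2a4 and Slc5a2 were not in the promoter table. Capitals mark matches on either strand to the letters TATAAA, known as a TATA box, to the letters CCAAT, and to the letters GGGCGG, known as a GC box.

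Slc2a12 (chr10:22644761-22645060, plus strand): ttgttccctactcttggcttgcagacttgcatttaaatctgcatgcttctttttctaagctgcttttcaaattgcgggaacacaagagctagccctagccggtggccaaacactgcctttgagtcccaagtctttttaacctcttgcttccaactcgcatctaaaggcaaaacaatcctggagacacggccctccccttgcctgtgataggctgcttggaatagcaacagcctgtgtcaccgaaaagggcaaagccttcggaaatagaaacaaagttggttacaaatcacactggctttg

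Slc2a1 (chr4:119108495-119108794, plus strand): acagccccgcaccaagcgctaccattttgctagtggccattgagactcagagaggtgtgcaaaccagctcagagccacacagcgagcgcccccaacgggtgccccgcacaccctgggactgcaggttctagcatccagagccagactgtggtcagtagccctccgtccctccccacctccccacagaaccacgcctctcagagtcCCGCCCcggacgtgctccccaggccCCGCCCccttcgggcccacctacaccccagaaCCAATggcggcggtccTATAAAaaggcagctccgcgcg

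Slc2a8 (chr2:32982034-32982333, minus strand): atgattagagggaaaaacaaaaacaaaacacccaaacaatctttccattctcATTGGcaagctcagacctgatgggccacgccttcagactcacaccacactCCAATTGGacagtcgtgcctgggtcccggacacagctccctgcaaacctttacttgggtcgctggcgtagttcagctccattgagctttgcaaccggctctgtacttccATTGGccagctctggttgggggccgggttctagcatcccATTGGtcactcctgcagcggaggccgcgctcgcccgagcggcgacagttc

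The Slc2a1 window held 1 TATA box match, 1 CCAAT match and 2 GC box matches on the minus strand, with its TATA match 29 bases after the annotated start. The Slc2a8 window held 5 CCAAT matches, 2 of which overlap each other and a CANNTG match (E-box). Slc2a12 held none of these motifs and no match to the MEF2 element, searched by name, and its window was 47.0% G or C, against 65.3% for Slc2a1 and 55.7% for Slc2a8. Of 32851 promoters of the same length, 13.6% held TATAAA, 37.4% CCAAT, 35.7% GGGCGG, 72.3% CANNTG and 3.19% the MEF2 element. Slc2a12 and Slc2a1 thus shared no motif of this small set, and a match describes the letters only.

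The 2 cotransporter genes are described first, since SGLT2 is the protein ERTU was designed to bind. Slc5a2 (ENSMUSG00000030781, chr7:128265657-128272430, plus strand, GRCm38) had 34 read pairs in all 18 libraries together. In WT CD the 4 libraries held 6, 5, 2 and 1 counts, and in WT ERTU the 5 libraries held 1, 2, 2, 2 and 3. In Gαq CD the counts were 0, 1, 0, 1 and 0, and in Gαq ERTU 1, 2, 3 and 2. Only WT CD libraries 1 and 2 exceeded 3 counts, the upper limit that a count of 0 allows, which was worth 0.144 to 0.195 CPM. Transcript of the drug target was therefore at or near the limit of detection in left ventricle of every group.

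At that limit, Slc5a2 in WT CD averaged 0.202 ± 0.135 CPM (SD, n = 4), WT ERTU 0.116 ± 0.0482 CPM (n = 5), Gαq CD 0.0216 ± 0.0298 CPM (n = 5) and Gαq ERTU 0.108 ± 0.0457 CPM (n = 4). Gαq CD was the low group, with each of its 5 libraries below all libraries of WT CD and of Gαq ERTU. The margin was small, since libraries with 1 count stood on both sides of it and differed only by depth and TMM factor (0.0596 CPM in Gαq CD library 9, 0.0628 CPM in WT CD library 5 and 0.0609 CPM in Gαq ERTU library 16). Gαq CD library 9 and Gαq ERTU library 16 had total counts of 16408011 and 16481268. Their order thus came from the TMM factors (1.02 and 0.997) and not from depth. Exact two-sided permutation tests gave p = 0.0159 for Gαq against WT on CD and p = 0.0159 for ERTU against CD in Gαq (both 0.0317 after Benjamini-Hochberg adjustment over the 4 tests of Slc5a2). These are the smallest p-values the design allows, and both rest on the same 5 Gαq CD libraries, which held 2 counts in all. Among genes that passed the filter, 4.6% were lower in Gαq on CD without overlap and 0.744% were higher with ERTU in Gαq without overlap. For Gαq against WT on ERTU the exact permutation p was 0.810, and for ERTU against CD in WT it was 0.206. Neither low p-value of Slc5a2 held its adjusted call under another scaling. With raw counts in place of CPM both exact permutation p-values were 0.0476, or 0.0952 after adjustment over the 4 tests, and with plain library totals they were 0.0159 and 0.0317 (permutation), both 0.0635 after adjustment.

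No fold change is given for Slc5a2, since the groups lay at or near the detection limit. The 7 kidney tubule markers measured beside it were all too low to test. Their summed level was 0 CPM in WT CD library 1 and 0.0570 CPM in WT CD library 2, the libraries with the most Slc5a2, and highest at 5.19 CPM in WT ERTU library 14, which held 2 counts of Slc5a2. Exons of Slc5a2 overlap those of BC017158 on the other strand, which read about 10.4 CPM on average. The sources used here do not say clearly whether read strand decided the gene, so a few pairs from BC017158 cannot be told apart from Slc5a2.

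Slc5a1 (ENSMUSG00000011034, chr5:33104219-33162870, plus strand), the gene of SGLT1, was low but measurable, at 2 to 59 counts per library. In WT CD it read 1.73, 1.88, 1.22 and 1.13 CPM, and in WT ERTU 2.70, 2.01, 1.04, 3.09 and 0.451 CPM. In Gαq CD it read 2.03, 0.194, 0.549, 0.536 and 0.797 CPM, and in Gαq ERTU 1.40, 0.111, 2.20 and 1.61 CPM. The WT CD libraries lay close together, while each of the other groups held values several-fold apart and all groups overlapped. In Gαq CD, 4 of 5 libraries were below every WT CD library and library 6 was above them.

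By edgeR's quasi-likelihood test with Benjamini-Hochberg adjustment, Slc5a1 differed by a log2 fold change of -0.68 ± 0.41 (SE) between genotypes with diet in the model, a difference within the spread between libraries (95% interval -1.54 to 0.19, adjusted p = 0.281). The diet difference for Slc5a1 was 0.51 ± 0.41 (SE), with an interval of -0.35 to 1.38 and an adjusted p of 0.743. Within Gαq hearts the ERTU against CD difference was 0.73 ± 0.62 (SE, interval -0.56 to 2.02), and without the 4 libraries of low Pdk4 it was -0.06. These intervals of Slc5a1 cover both no change and changes of more than 2-fold, and the data do not separate these.

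Slc2a4 (ENSMUSG00000018566, chr11:69942539-69948188, minus strand), the gene of GLUT4, was lower in Gαq hearts. In bulk tissue fewer cells of a type and less RNA per cell cannot be told apart. In WT CD it read 408.5, 388, 414 and 301 CPM, and in WT ERTU 423, 414, 333, 291 and 513 CPM. In Gαq CD it read 317.5, 278, 256, 333 and 184 CPM, and in Gαq ERTU 246, 285.5, 241 and 224 CPM. On ERTU the genotypes did not overlap, although the highest Gαq library (285.5 CPM) was close to the lowest WT library (291 CPM). On CD 3 of 5 Gαq libraries were below every WT library. WT CD averaged 378 ± 52.2 CPM (SD, n = 4), WT ERTU 395 ± 86.4 CPM (n = 5), Gαq CD 274 ± 58.8 CPM (n = 5) and Gαq ERTU 249 ± 25.9 CPM (n = 4).

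With diet in the model, Slc2a4 fell by 0.56 ± 0.12 (log2, SE; interval -0.81 to -0.32) in Gαq, a 1.48-fold lower level (edgeR, adjusted p = 0.00156). On ERTU alone the difference in Slc2a4 was -0.66 ± 0.17 (edgeR, adjusted p = 0.0166), a call lost on omitting WT ERTU library 15 (adjusted p = 0.05035), Gαq ERTU library 18 (0.0537) or Gαq ERTU library 20 (0.0606). On CD alone it was -0.46 ± 0.17 and did not pass (edgeR, adjusted p = 0.0961, interval -0.81 to -0.12). The difference between these 2 effects, which is the interaction of genotype and diet, was -0.20 ± 0.24 for Slc2a4 with an adjusted p of 1.00 by edgeR, so the genotype effect was not shown to differ between diets. No single omitted library ended the call by genotype.

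Slc2a12 (ENSMUSG00000037490, chr10:22645011-22704285, plus strand), the gene of GLUT12, had the largest of the genotype differences that passed among the transporter genes. In WT CD it read 23.0, 17.8, 13.4 and 12.9 CPM, and in WT ERTU 21.2, 23.5, 16.4, 14.4 and 17.8 CPM. In Gαq CD it read 15.3, 6.82, 8.37, 12.3 and 10.8 CPM, and in Gαq ERTU 7.86, 11.4, 9.72 and 8.69 CPM. Of the 9 Gαq libraries, 8 were below every WT library, the exception being Gαq CD library 6, and on ERTU the groups did not overlap. WT CD averaged 16.8 ± 4.69 CPM (SD, n = 4), WT ERTU 18.7 ± 3.68 CPM (n = 5), Gαq CD 10.7 ± 3.32 CPM (n = 5) and Gαq ERTU 9.41 ± 1.51 CPM (n = 4).

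By genotype, Slc2a12 fell by 0.82 ± 0.15 (log2, SE; interval -1.14 to -0.50), a 1.77-fold lower level (edgeR, adjusted p = 0.000576), and no single omitted library ended this call. On ERTU alone the Slc2a12 difference was -0.99 ± 0.22, or 1.98-fold lower (edgeR, adjusted p = 0.00649). On CD alone it was -0.65 ± 0.21 and missed the threshold (edgeR, adjusted p = 0.0653). That difference on CD passed with no filter on low counts (adjusted p = 0.0463), with DESeq2 (0.0380), with limma voom and sample quality weights together (0.0263), without WT CD library 5 (0.0418) and without Gαq CD library 6 (0.0187). Without the 4 libraries of low Pdk4 it was -0.46 with an adjusted p of 0.552. The interaction for Slc2a12 was -0.33 ± 0.30 (interval -0.97 to 0.30, edgeR adjusted p = 1.00). Exons of Slc2a12 overlap those of Tbpl1 on the other strand, which read 14.4 to 21.4 CPM and did not pass in any comparison.

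Slc2a1 (ENSMUSG00000028645, chr4:119108711-119137983, plus strand), the gene of GLUT1, was lower in Gαq by a smaller margin. In WT CD it read 17.9, 15.2, 14.9 and 17.3 CPM, and in WT ERTU 25.9, 18.4, 13.9, 13.6 and 24.03 CPM. In Gαq CD it read 12.5, 13.99, 16.3, 13.8 and 10.7 CPM, and in Gαq ERTU 15.5, 14.2, 13.6 and 14.5 CPM. The high values were WT ERTU libraries 11 and 15, and the genotypes overlapped on both diets. With diet in the model Slc2a1 fell by 0.34 ± 0.12 (log2, SE; interval -0.58 to -0.10), a 1.27-fold lower level (edgeR, adjusted p = 0.0447). This call lay at the threshold. It was lost in 13 of the 18 fits that left out 1 library (adjusted p from 0.0163 to 0.0840 over the 18), with no filter on low counts (0.0542) and with limma on the deposited transformed values (0.0575). Neither the difference on CD (-0.28 ± 0.17, adjusted p = 0.376) nor that on ERTU (-0.40 ± 0.17, adjusted p = 0.161) passed in edgeR for Slc2a1. Gm12868, whose exons overlap on the other strand, had 0 counts in every library.

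Slc2a8 (ENSMUSG00000026791, chr2:32972990-32982083, minus strand), the gene of GLUT8, read 23.0, 27.2, 17.8 and 19.4 CPM in WT CD and 30.4, 25.2, 21.6, 19.0 and 20.2 CPM in WT ERTU. It read 19.2, 14.3, 13.3, 18.5 and 20.1 CPM in Gαq CD and 20.2, 16.7, 20.4 and 21.6 CPM in Gαq ERTU. The genotypes overlapped on both diets, and 5 of 9 WT libraries were above every Gαq library. The fitted genotype difference for Slc2a8 was -0.30 ± 0.11 (log2, SE; interval -0.52 to -0.07) and missed the threshold (edgeR, adjusted p = 0.0616). It passed without WT CD library 4, Gαq CD library 10, WT ERTU library 14 or WT ERTU library 15 (adjusted p from 0.0348 to 0.0486). On CD the Slc2a8 difference was -0.35 ± 0.16 (edgeR, adjusted p = 0.195) and on ERTU -0.24 ± 0.16 (edgeR, adjusted p = 0.413).

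Fxyd1 (ENSMUSG00000036570, chr7:31051678-31057199, minus strand), the gene of phospholemman, had no difference that passed in any comparison. It read 320, 317, 323 and 243.5 CPM in WT CD and 352, 302, 345, 285 and 276.5 CPM in WT ERTU. It read 313, 259, 300.1, 272 and 307 CPM in Gαq CD and 345, 294, 290 and 288 CPM in Gαq ERTU. Every pair of groups overlapped. The genotype difference for Fxyd1 was -0.04 ± 0.07 (log2, SE), with an interval of -0.20 to 0.11 and an adjusted p of 0.724 by edgeR. That interval was the narrowest of the 6 tested genes. On CD the Fxyd1 difference was -0.05 ± 0.11 (interval -0.27 to 0.17) and on ERTU -0.04 ± 0.11 (interval -0.26 to 0.18).

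**Figure D2:**
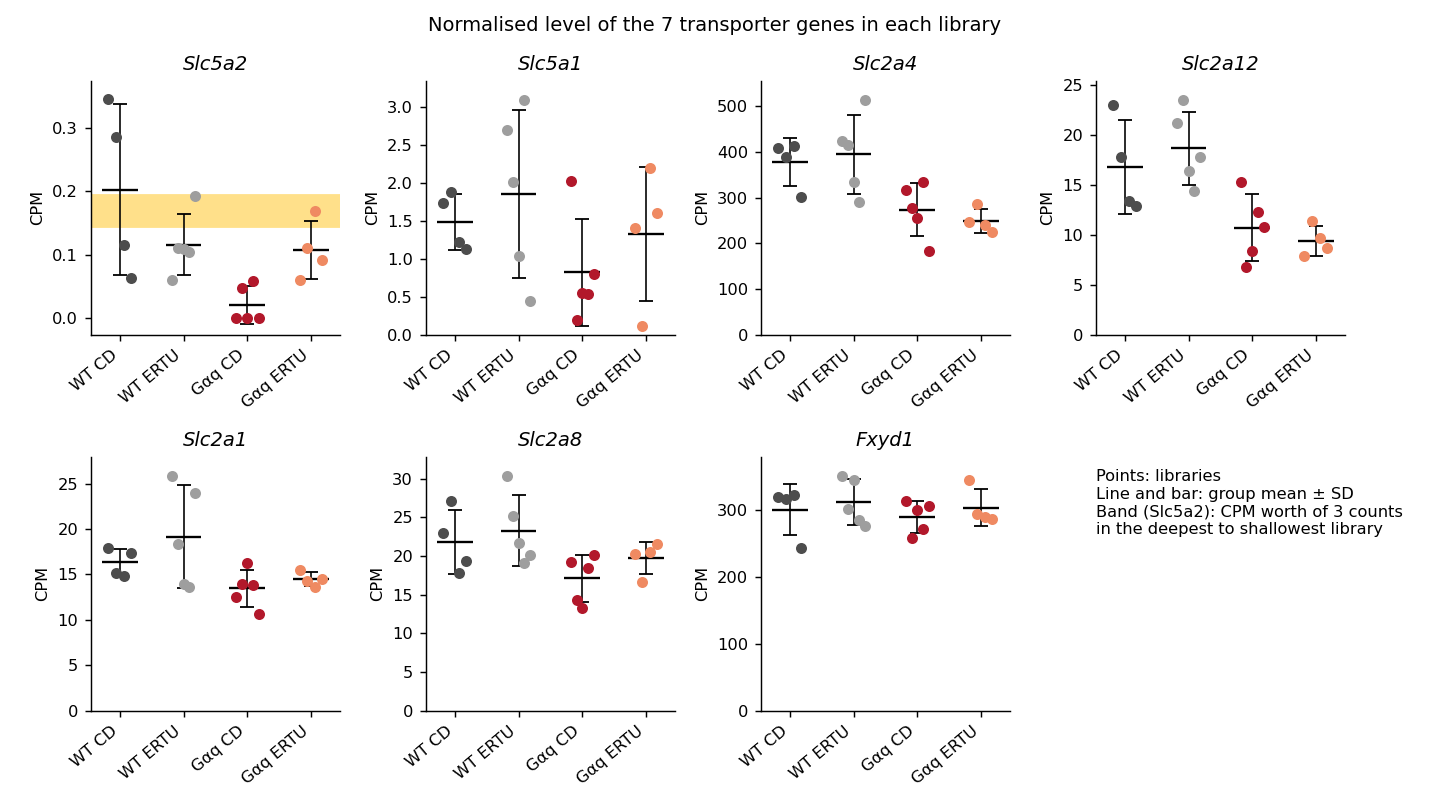
CPM of each of the 7 genes (y axis of each panel) in every library of the 4 groups (x axis); points are libraries, lines with bars are group means ± SD, and the band for Slc5a2 marks what 3 counts are worth. For Slc2a4 and Slc2a12 the 4 Gαq ERTU libraries lie below all 5 WT ERTU libraries, and for Slc5a2 only 2 libraries are above the band.

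Over the 6 tested genes, 3 were called by genotype (Slc2a12, Slc2a4 and Slc2a1), all lower in Gαq, where 9.92% of all tested genes were called lower and 9.72% higher. On ERTU 2 of 6 were called (Slc2a12 and Slc2a4), where 4.24% of all genes were called lower and 3.93% higher. These 2 were also the ones whose groups did not overlap on ERTU, as in 5.49% of all genes in that direction and 5.4% in the other. By genotype over both diets the ranges of all 6 overlapped, where 1.83% of all genes were lower without overlap. On CD all 6 overlapped as well, where 4.6% of all genes were lower and 4.7% higher without overlap. On CD 0 of 6 were called by edgeR, where 4.1% of all genes were called lower and 4% higher. On CD 3 of the 6 had an unadjusted p under 0.05 in edgeR (Slc2a12, Slc2a4 and Slc2a8), and DESeq2 called Slc2a12. The fitted genotype differences of the 6 genes had a median of -0.45, beside 0.00 for all genes tested. On CD the median was -0.41 and on ERTU -0.44.

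Markers of cell types moved with genotype beside these genes, where 9.92% of all tested genes were called lower and 9.72% higher. Of 10 cardiomyocyte markers 4 were called lower and 1 higher in Gαq, and 7 had a lower and 3 a higher fitted level. Their summed level per library was 70670 to 99380 CPM in WT and 62920 to 89260 CPM in Gαq. The highest level of any single marker was 52850 CPM in WT and 43740 CPM in Gαq, so these sums lean on the most abundant marker. Of 8 fibroblast markers 6 were called higher and 0 lower, with sums of 1542 to 3149 CPM in WT and 2897 to 4390 CPM in Gαq. Of 10 endothelial markers 4 were called lower, with sums of 1464 to 1888 CPM in WT and 1292 to 1530 CPM in Gαq. Of 4 skeletal muscle markers tested 2 were called higher, and of 5 lymphocyte markers tested 1 was called higher. None of the red blood cell, macrophage, fat, atrial or smooth muscle markers was called by genotype. The part of these shifts in the lower Slc2a4, Slc2a12 and Slc2a1 levels was not tested.

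The comparison of diets asked whether the drug changed these genes in the heart. None of the 6 was called by edgeR for ERTU against CD with genotype in the model, where 0% of all genes were called, 1252 genes had an unadjusted p under 0.05 and DESeq2 called 2. The unadjusted p in edgeR was 0.166 for Slc2a1, the smallest of the 6 genes, and DESeq2 called none of them. The fitted difference was 0.17 ± 0.12 (log2, SE) for Slc2a1 with an interval of -0.08 to 0.41. For Slc2a8 it was 0.15 ± 0.11 with an interval of -0.08 to 0.38. For Slc2a4 it was -0.04 ± 0.12 with an interval of -0.28 to 0.21, and for Slc2a12 -0.01 ± 0.15 with an interval of -0.33 to 0.31. For Fxyd1 it was 0.06 ± 0.07 with an interval of -0.09 to 0.21. A change of the 5 genes other than Slc5a1 by as much as 1.5-fold in either direction is thus outside these intervals. They cover both genotypes together. Within Gαq alone, the interval of Slc2a12 given below is wider and includes a 1.5-fold fall.

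Within WT the ERTU differences ran from 0.05 ± 0.11 (log2, SE) for Fxyd1 to 0.32 ± 0.58 for Slc5a1, and edgeR called 0 of the 6 and 0% of all genes (365 genes, none of the 6, at an unadjusted p under 0.05). Within Gαq they ran from -0.18 ± 0.22 for Slc2a12 to 0.73 ± 0.62 for Slc5a1, none of the 6 was called by edgeR or DESeq2 or had an unadjusted p under 0.05, and 0.00615% of all genes were called by edgeR. For Slc2a4 and Slc2a12, the genes lower in Gαq, the ERTU difference within Gαq was -0.14 ± 0.17 (interval -0.49 to 0.21) and -0.18 ± 0.22 (interval -0.64 to 0.27), and the mean of each in Gαq ERTU lay within 1 SD of that in Gαq CD. All 6 overlapped between diets in both genotypes. Without overlap, 0.43% of all genes were lower and 0.326% higher with ERTU in WT, and 0.854% were lower and 0.744% higher with ERTU in Gαq. The interaction was called for 0 of the 6 and for 0% of all genes by edgeR (313 at an unadjusted p under 0.05).

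**Figure D3:**
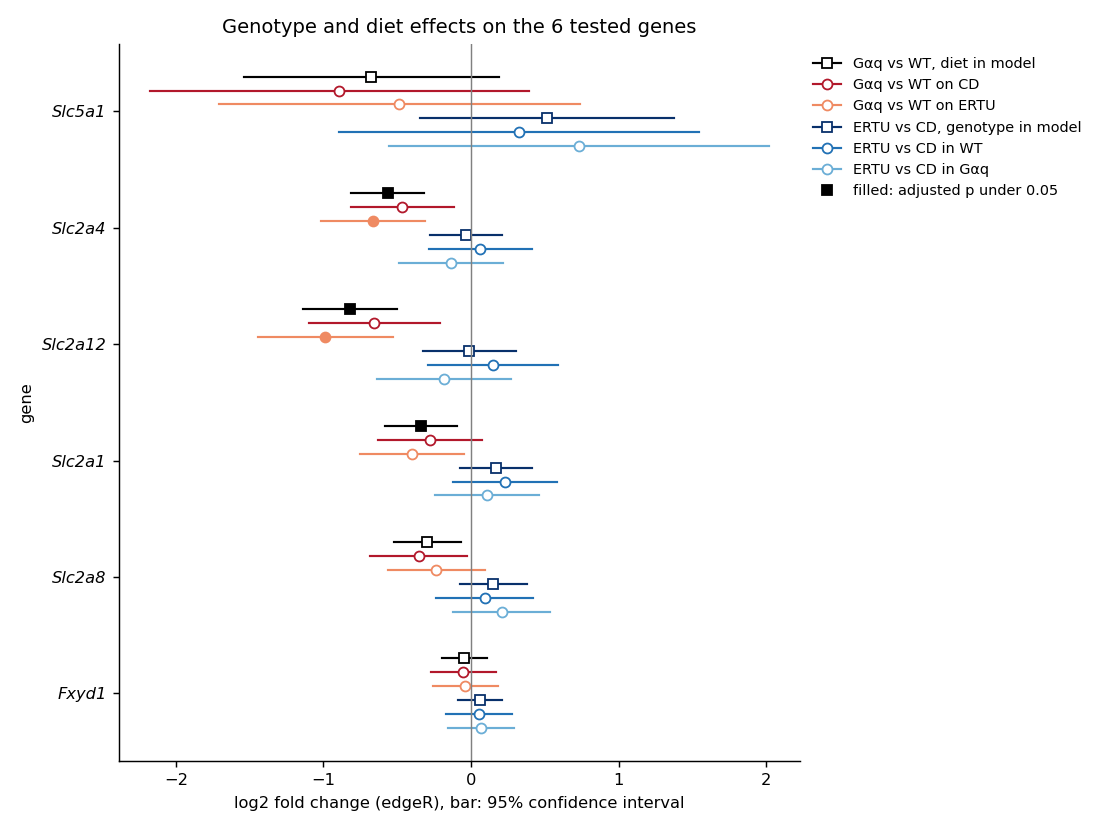
Log2 fold changes of the 6 tested genes from edgeR (x axis, with 95% confidence intervals) in 6 comparisons; squares come from the model with both factors and circles from the model with 1 mean per group, and filled symbols passed an adjusted p of 0.05. The filled symbols are Slc2a4 and Slc2a12 by genotype and on ERTU and Slc2a1 by genotype, and every ERTU against CD interval includes 0.

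The shares of the GLUT genes in the summed level of 12 SLC2 genes were also examined, per kb of exon. The summed SLC2 level was 126.5 ± 15.2 CPM per kb (SD, n = 4) in WT CD, 133 ± 27.0 (SD, n = 5) in WT ERTU, 93.2 ± 17.2 (SD, n = 5) in Gαq CD and 87.0 ± 6.92 (SD, n = 4) in Gαq ERTU. Slc2a4 made up most of it in every library, from 78.0% in Gαq CD to 88.8% in WT CD, with group means of 85.7% ± 2.32 (SD, n = 4) in WT CD, 85.2% ± 2.02 (SD, n = 5) in WT ERTU, 84.0% ± 3.45 (SD, n = 5) in Gαq CD and 82.2% ± 1.98 (SD, n = 4) in Gαq ERTU. These shares of Slc2a4 overlapped between all groups. Slc2a8 held 3.77% to 9.24%, Slc2a1 3.17% to 5.30% and Slc2a12 1.74% to 3.97% of a library. The ratio of Slc2a4 to Slc2a1, of the insulin-responsive to the basal transporter, was 23.6 ± 4.51 (SD, n = 4) in WT CD, 21.3 ± 2.89 (SD, n = 5) in WT ERTU, 20.6 ± 4.26 (SD, n = 5) in Gαq CD and 17.4 ± 2.12 (SD, n = 4) in Gαq ERTU, and its ranges overlapped between all groups.

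**Figure D4:**
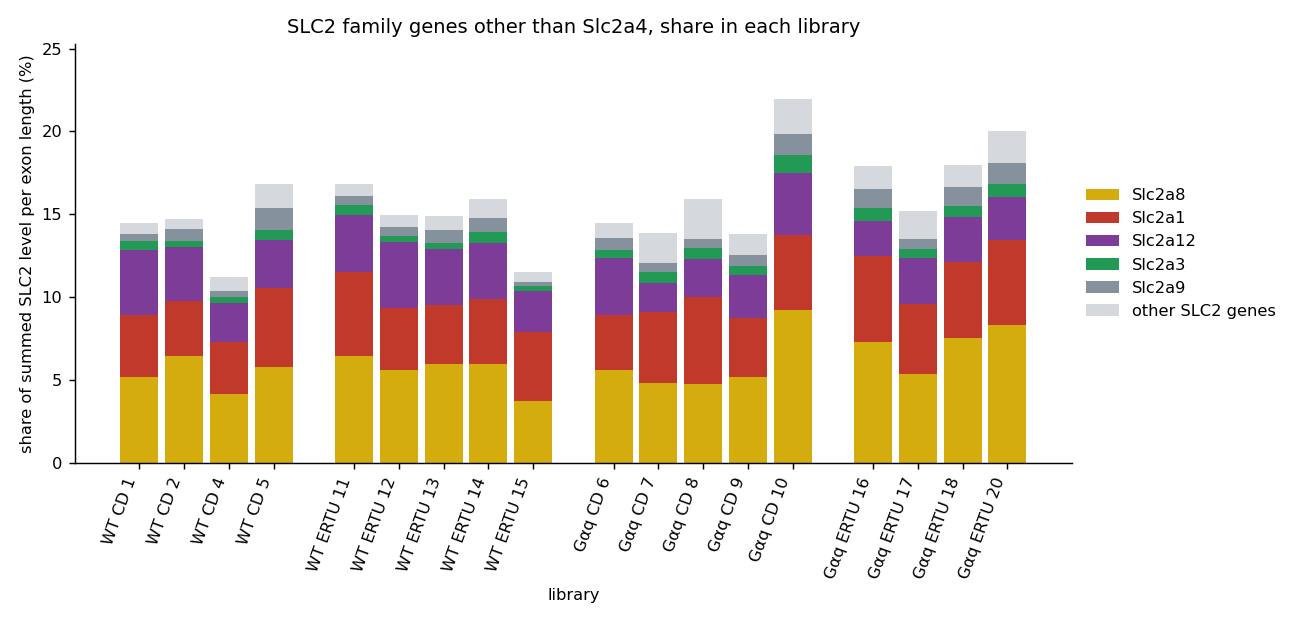
Share of the summed SLC2 level per kb of exon (y axis, %) held by the SLC2 genes other than Slc2a4 in each library (x axis); bars are stacked by gene and start at 0, and the remainder up to the whole is Slc2a4. Slc2a8, Slc2a1 and Slc2a12 make up most of each bar, and the bar is highest in Gαq CD library 10, where Slc2a4 holds 78.0%.

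The genes whose level moved most like each of the tested ones over the 18 libraries differed between them. The measure was Pearson's r of log2 CPM against genes with a mean log2 CPM of at least 3, and since libraries share their group, r of the deviations from group means is given second. Slc2a4 was closest to Cox10, which is needed to make heme A for cytochrome oxidase (r = 0.955, within groups 0.898), Lzic (0.955, 0.915) and Gm31251 (0.949, 0.922). Slc2a12 was closest to Cs, the gene of citrate synthase (0.926, 0.809), Tmem135 (0.923, 0.788) and Sirt3, the gene of a mitochondrial deacetylase (0.919, 0.806). Fxyd1 was closest to Atp5o, a subunit of ATP synthase (0.883, 0.893), Josd2 (0.876, 0.889) and Nfu1, an iron-sulfur cluster scaffold of mitochondria (0.873, 0.900).

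Slc2a8 was closest to Ppp1r13l (0.934, within groups 0.894), Klhl33 (0.919, 0.878) and Pkp2, which encodes the desmosome protein plakophilin 2 (0.912, 0.858). Slc2a1 was closest to Dnajb5 (0.838, 0.763), Pvr (0.809, 0.681) and Xrcc1 (0.808, 0.733). Slc5a1 was closest to Hpcal1 (0.829, 0.801), Rgcc (0.812, 0.791) and Etfbkmt (0.800, 0.795). Of the 15 pairs among the tested genes themselves, the highest r was that of Slc2a4 with Slc2a12 (0.774, within groups 0.435), and Slc2a8 with Slc2a12 was highest within groups (0.706, 0.623). Slc5a1 and Slc2a4 had r = 0.124, and -0.287 within groups. These values describe libraries that also share depth and composition.

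The other genes of the pathway were described from 6 lists with 81 genes, of which 61 were tested. By genotype 10 of the 61 were called, 7 higher and 3 lower, where 19.6% of all genes were called, and the median log2 difference of the 61 was -0.02 beside 0.00 for all genes. On CD 3 were called and on ERTU 2, against 8.1% and 8.17% of all genes. Of the 61, edgeR called 0 by diet (3 at an unadjusted p under 0.05), 0 for ERTU in WT (1 unadjusted), 0 for ERTU in Gαq (3 unadjusted) and 0 for the interaction (0 unadjusted), and DESeq2 called 0 in each of these. Among the 8 other facilitative transporters 4 were tested. Slc2a10, the gene of GLUT10 and the most abundant of the list per kb of exon (0.992 CPM per kb), rose by 0.50 ± 0.16 (log2, SE) in Gαq (edgeR, adjusted p = 0.0335), from 1.99 to 4.52 CPM in WT to 2.58 to 5.86 CPM in Gαq, with overlap. It was not called without the 4 libraries of low Pdk4 (0.39, adjusted p = 0.187) or in 8 of the 18 fits that left out 1 library. Slc2a10 thus differed in the opposite direction to Slc2a4, Slc2a12 and Slc2a1. Its first place in the list depends on the length used. With the longest transcript as length, Slc2a9 had a mean of 1.09 and Slc2a10 of 0.999 CPM per kb.

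Of the 11 other SLC5 cotransporters 2 were tested, and neither was called in the main edgeR fit. By genotype 1 was called in the fits without each set of 4 libraries, and 0 to 2 when 1 library was left out. The most abundant per kb was Slc5a6, the sodium-dependent multivitamin transporter (3.30 CPM per kb), with a genotype difference of -0.23 ± 0.08 (edgeR, adjusted p = 0.0576). The other one was Slc5a3, the sodium-myo-inositol cotransporter, named after its value was seen, with 0.56 ± 0.20 (edgeR, adjusted p = 0.0555). Among the 4 partners and regulators of the SGLT proteins only Sgk1, a kinase that raises SGLT1 activity and sodium transport, passed the filter. It was at 14.3 CPM per kb, and its ERTU against CD difference within Gαq was 0.69 ± 0.29, which did not pass (edgeR, adjusted p = 0.653). Sgk1 and Slc5a1 had r = 0.651 over the 18 libraries and 0.593 within groups, which was rank 312 among 10150 genes.

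Of 14 other sodium pump subunits and FXYD proteins 11 were tested, and 2 were called by genotype, both higher. Fxyd6, a sister gene of Fxyd1, rose by 0.47 ± 0.11 in Gαq (edgeR, adjusted p = 0.00453), from 29.9 to 64.1 CPM in WT to 60.8 to 82.0 CPM in Gαq. Atp1b4, which is related in sequence to pump beta subunits, was called higher in Gαq by genotype, on CD and on ERTU, but lay at 0 to 0.188 CPM in WT and 0.387 to 1.55 CPM in Gαq. Its fitted log2 difference of 3.77 ± 0.52 (edgeR, adjusted p = 1.96e-05) rests on few counts, and without the 4 libraries of low Pdk4 the difference of Atp1b4 on CD was 2.56 and not called (adjusted p = 0.0919).

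Of 17 sodium exchangers and their scaffolds 16 were tested, and 4 were called by genotype, 2 in each direction. Slc8a1, the sodium-calcium exchanger NCX1 of cardiomyocytes, fell by 0.64 ± 0.14 (edgeR, adjusted p = 0.0018), from 336 to 659 CPM in WT to 204 to 352 CPM in Gαq, and it was also called on ERTU (-0.82 ± 0.19, adjusted p = 0.00839). Slc9a2, the sodium-hydrogen exchanger NHE2, fell by 0.84 ± 0.18 (edgeR, adjusted p = 0.00171) and Slc9a9, the endosomal NHE9, rose by 0.37 ± 0.12 (edgeR, adjusted p = 0.0293; 0.0637 without the 4 libraries of highest atrial marker sum). The call of Slc9a9 was lost in 6 of the 18 fits that left out 1 library (adjusted p up to 0.0655). Slc9a3, the exchanger NHE3 of kidney and gut, rose by 1.84 ± 0.37 (edgeR, adjusted p = 0.00111) from 0.165 to 1.13 CPM in WT to 0.853 to 7.33 CPM in Gαq. On CD, Slc9a2 (-1.11 ± 0.24) and Slc9a3 (2.13 ± 0.51) were called by edgeR with adjusted p of 0.00548 and 0.0123, but without the 4 libraries of low Pdk4 they were -0.90 and 1.41 with adjusted p of 0.3155 and 0.352. The call of Slc9a3 on CD was also lost on omitting WT CD library 1 or 2 (adjusted p up to 0.0542). The most abundant gene per kb was the scaffold Slc9a3r2 (64.0 CPM per kb).

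Of 27 genes of glucose transporter trafficking and control all were tested and 3 were called by genotype. Tbc1d4, the insulin-regulated brake on GLUT4 exit to the surface, fell by 0.48 ± 0.11 in Gαq (edgeR, adjusted p = 0.00388), from 100.4 to 189 CPM in WT to 79.3 to 122 CPM in Gαq. Clip3, which takes part in GLUT4 trafficking in fat cells, rose by 0.48 ± 0.15 (edgeR, adjusted p = 0.0231), and Hk1, hexokinase 1, rose by 0.38 ± 0.12 (edgeR, adjusted p = 0.0271). Without the 4 libraries of low Pdk4, Clip3 and Hk1 missed the threshold (adjusted p = 0.0906 and 0.0651). Omitting 1 library ended the call of Hk1 in 4 of 18 fits (adjusted p up to 0.073) and that of Clip3 in 1 (without Gαq ERTU library 20, 0.0619). Txnip, which promotes the internalization of glucose transporters, was the most abundant of the list (425 CPM per kb) and ranged from 292 to 1805 CPM in Gαq CD alone. Its ERTU against CD difference was 0.49 ± 0.28 (edgeR, adjusted p = 0.660).

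**Figure D5:**
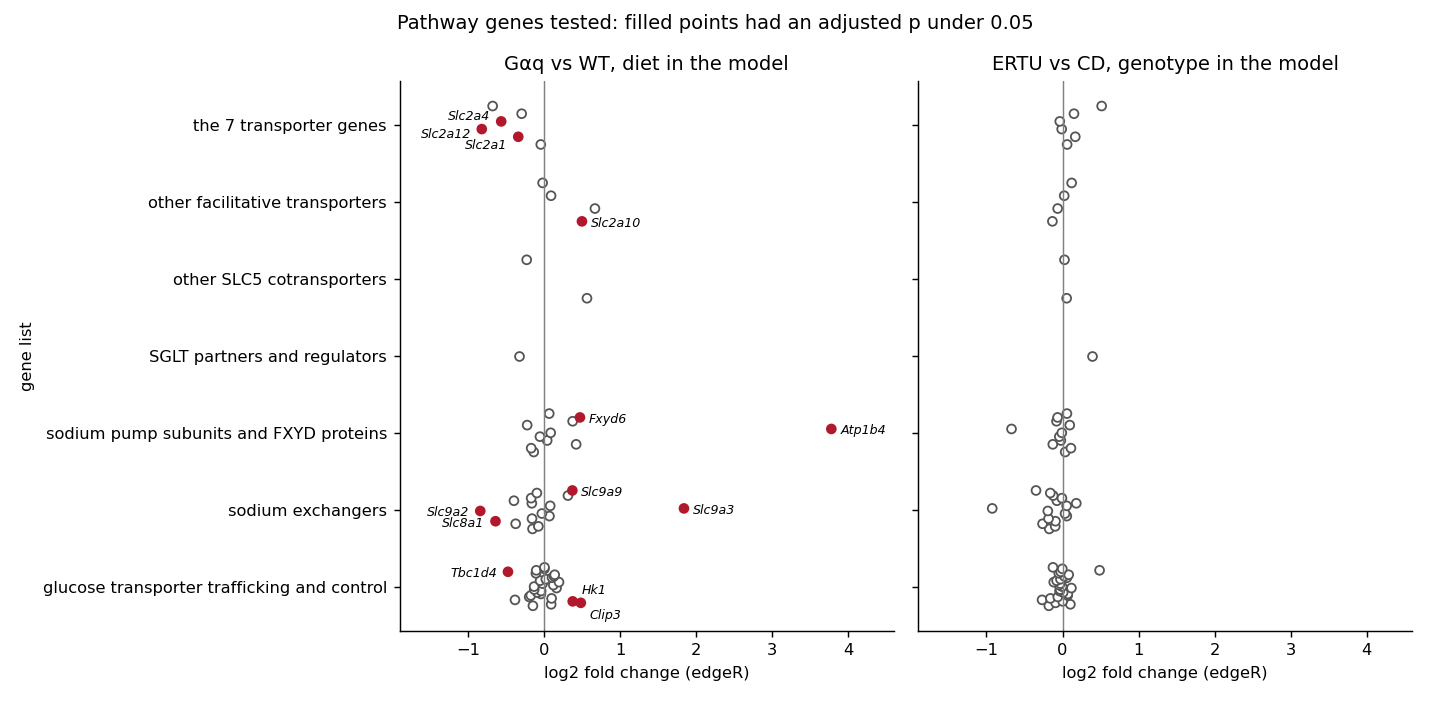
Log2 fold change from edgeR (x axis) of the tested genes of each list (y axis), for Gαq against WT on the left and ERTU against CD on the right; filled and named points passed an adjusted p of 0.05. In the left panel 3 of the 6 tested transporter genes and 10 genes of the lists are filled, and in the right panel none is.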

How the data were processed

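Left ventricle RNA was sequenced by the authors after poly(A) selection (NEBNext Ultra II RNA kit, Illumina sequencing, paired ends). Reads were aligned to mm10 with STAR 2.6.0c and read pairs were counted per Ensembl gene with featureCounts (Subread 1.6.2). The authors deposited raw counts, used here for all main results, and variance-stabilized values on a log2-like scale, used only in an alternative. The methods speak of counting on the same strand, but whether read strand decided the gene is not clear from the sources used here.

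Of 55450 gene IDs, 55190 (99.5%) matched a GENCODE M21 symbol. Rows left out by the filter on low counts held 0.0906% of counts. The other 16270 genes were tested with edgeR 4.0.16 in R 4.3.3 (TMM scaling, quasi-likelihood test, Benjamini-Hochberg adjustment over all genes, threshold 0.05), with genotype and diet as terms for the genotype and diet effects and with 1 mean per group for the other comparisons. Log2 CPM used a prior count of 2. Slc5a2 was compared with exact two-sided permutation tests (scipy 1.17.1). The SE of an edgeR difference was taken as its absolute log2 fold change divided by the square root of the test's F statistic. Intervals are 95% intervals built from that SE with the t distribution. The limit of 3 counts covers counting error only.

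Named genes were the 7 transporter genes, of each pathway list the called genes (at most the 6 of smallest p) and the most abundant per length, and the 3 genes most alike to each tested gene. A gene that this rule names is not reported here. The members and lists were chosen with earlier results of these data known. Alternatives were DESeq2 1.42.0, limma 3.58.1 (on the deposited values, and voom combined with weights for sample quality), other scalings and filters, and left-out libraries. The fits were tested on simulated data. The numbers of the count columns were not linked to the replicate numbers of the labels, and each column's group came from its name.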

Additional observations from a re-analysis of the deposited data

Results flagged for a closer look

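In 72 groups of 4 or 5 values, 4 held a library far from the rest by Dixon's test (gap to the nearest value as a share of the range), where chance gives about 1 in 20, or 3.6. Fxyd1 in WT CD was lowest in library 5 at 243.5 CPM, with the others at 317 to 323 CPM (gap share 0.929). Fxyd1 in Gαq ERTU was highest in library 16 at 345 CPM, with the others at 288 to 294 CPM (gap share 0.881). Fxyd6 was also highest in Gαq ERTU library 16, at 82.0 CPM against 60.8 to 62.4 CPM (gap share 0.913). Atp1b4 in WT ERTU was highest in library 14 at 0.0524 CPM, with 0 CPM in the others (gap share 1.0). That level is near the limit of detection, since 2 counts of Slc5a2 in the same library read 0.105 CPM. With the others at 0, any count gives a gap share of 1.0, so this flag carries no weight.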

How the results depend on the processing

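The genotype calls of Slc2a12 and Slc2a4 held, with the same direction, under every alternative run. The alternatives without 4 libraries, and raw counts for Slc5a2, were chosen after seeing the data. No paired analysis was possible because the count columns carry no replicate number shared with the labels, so no replicate block was run. Except where stated, the cause of a change was not tested. Depth limits Slc5a2, and the spread between libraries limits Slc5a1.

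With DESeq2 the genes called were 2 by diet and 4 for ERTU in Gαq, and the pathway genes called numbered 5 on CD and 4 on ERTU between genotypes. With voom and sample quality weights, which change 2 choices together, 2755 genes and 9 pathway genes were called for Gαq on ERTU, and with a filter at a mean CPM of 1 there was 1 pathway gene. Without the 4 libraries of low Pdk4, 317 genes and 0 pathway genes were called for Gαq on CD, with fewer libraries in the fit. The 1 gene called for ERTU in Gαq became 0 in that fit, without the 4 libraries of highest atrial marker sum, with no filter and with only the 2 groups compared. With the longest transcript as length, Fxyd1 in WT CD was at 450.2 CPM per kb.

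Leaving out 1 library at a time gave 2812 to 3458 genes and 7 to 14 pathway genes by genotype, 788 to 1414 and 2 to 4 for Gαq on CD (788 without WT CD library 1 and 851 without library 2), 946 to 1696 and 2 to 6 for Gαq on ERTU, and 0 to 0 genes for ERTU in Gαq. The Slc5a2 difference was then -0.227 to -0.133 CPM for Gαq on CD, -0.0280 to 0.0118 CPM for Gαq on ERTU (0.0118 without WT ERTU library 15 and 0.00822 without Gαq ERTU library 16), -0.133 to -0.0386 CPM for ERTU in WT and 0.0663 to 0.102 CPM for ERTU in Gαq.

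The other differences that changed sign were log2 values of genes not called in that comparison. Without the 4 libraries of low Pdk4 they were -0.0563 for Slc5a1 in ERTU in Gαq, 0.0616 for Slc2a4 by diet, 0.00343 for Fxyd1 by genotype, 0.0826 on CD and -0.0292 in ERTU in Gαq, and for the interaction -0.30 for Slc5a1, 0.13 for Slc2a1, -0.0053 for Slc2a8 and -0.12 for Fxyd1. Without the 4 libraries of highest atrial marker sum they were -0.0482 for Slc5a1 and -0.00164 for Fxyd1 in ERTU in WT, and -0.0195 for the Slc2a8 interaction. With voom and these weights they were -0.00889 for Slc5a1 in ERTU in WT and 0.00395 for Slc2a12 by diet, which was 0.0149 with limma on the deposited values. Leaving out 1 library, the ranges that crossed 0 were, for the interaction, -0.23 to 0.00873 for Slc2a1, -0.0056 to 0.23 for Slc2a8 and -0.0526 to 0.10 for Fxyd1, by diet -0.0946 to 0.0073 for Slc2a4 and -0.0748 to 0.0713 for Slc2a12, for ERTU in WT -0.0488 to 0.16 for Slc2a4, -0.0218 to 0.22 for Slc2a8 and -0.0348 to 0.0941 for Fxyd1, and for Gαq on ERTU -0.10 to 0.00951 for Fxyd1.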
